A study of Arabidopsis thaliana with 6 samples.

Results

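The genes described here are CAL, SEP4, AGL13 and AGL15, which encode MADS-domain transcription factors of Arabidopsis thaliana outside the core set of flowering-time regulators. They were chosen by the descriptions in the array files. Of 30361 gene models, 15 had a description with the letters MADS, 4 of these were pseudogene fragments and 7 were flowering-time genes set aside by the same rule, which left 4. The rule set aside 10 flowering-time loci in all, and 3 of these carried no such letters. The letters are missing from most of the family's descriptions, so these 4 genes are not the whole family: a further 48 MADS-box genes were listed by role and are given more briefly. RNA was taken from young leaves of untreated plants that were 4 weeks old and had grown in soil under long days, and it was measured on 6 NimbleGen arrays labelled with Cy3, 2 for each of wild type Col-0, the kyp mutant and the cmt3 mutant. KYP encodes a histone methyltransferase for H3K9 and CMT3 a chromomethylase for CHG sites in DNA, and the design compares each mutant with wild type. The labels name neither the alleles nor the lines they were made in. They also leave unsaid whether a genotype's 2 arrays hold RNA of separate plants, and a p-value here therefore refers to variation among 6 hybridisations, some or all of which may be technical.

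MADS-domain proteins bind short AT-rich DNA elements called CArG boxes as dimers, and the plant MIKC type carries a keratin-like domain through which the proteins form larger complexes. In flowers such complexes specify sepals, petals, stamens and carpels, while in leaves most genes for organ identity are held silent, largely by Polycomb proteins and H3K27 methylation. SEP4 belongs to the SEPALLATA group, which joins the organ identity complexes. CAL is a close relative of AP1 and acts with it in the identity of the floral meristem. AGL13 is a relative of AGL6 and is known from ovules and pollen, and AGL15 acts in embryos and, together with AGL18, as a repressor of flowering.

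The values are intensities normalized by RMA by the authors. They ranged from 10.6 to 64963 on a linear scale, with array medians of 9.89 to 9.96 once put on the log2 scale. The tissue label was set against markers. All 7 leaf photosynthesis genes stood between 15.47 and 15.98 (log2 intensity) on every array. The files hold no detection values, but 4 of 8 pollen and anther markers, 4 of 7 seed and endosperm markers and 4 of 8 root markers lay in the lowest 25% of intensities on all 6 arrays, and none of these 23 was called in any comparison (limma; 2 in kyp, 4 in cmt3 and 0 between the mutants had an unadjusted p under 0.05). Above that band on every array lay VEX1 (pollen and anther), FUS3 (seed and endosperm) and the root markers SCR, SHR and NRT2.1. SCR, at 11.80 to 12.80 (log2 intensity), lay above the median of every array. CMT3 fell by 1.65 on the log2 scale in cmt3 (adjusted p = 0.0159, limma; -1.56 and 0.319 in a fit that blocks on slide), whereas KYP in kyp differed by -0.24 (adjusted p = 0.515), which checks nothing about the label, since the mutation's place relative to the probes is not known. By the image names, slide 1 held kyp replicate 1 beside the wild type pair, and slide 2 held kyp replicate 2 beside the cmt3 pair. Wild type and cmt3 thus never share a slide, and their difference cannot be told apart from that of the slides except through the 2 kyp arrays. With the slide as a block 0 of all gene models were called in any comparison (limma; 2271 in kyp, 2289 in cmt3 and 1989 between the mutants had an unadjusted p under 0.05).

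None of the 4 genes was called in either mutant or between the mutants, at an adjusted p under 0.05 over all 30361 gene models (limma). Over all gene models 0.105% were called in kyp against wild type, 0.741% in cmt3 against wild type and 0.0296% in kyp against cmt3. At an unadjusted p under 0.05, 0 of the 4 genes were counted in kyp, 1 in cmt3 and 1 between the mutants, against 10.2%, 23% and 12.5% of all gene models. The gene counted in both was AGL15. The median difference of the 4 genes was -0.04 in kyp, -0.30 in cmt3 and 0.42 for kyp against cmt3, beside 0.00, 0.03 and -0.03 over all gene models. The wild type arrays serve both mutant comparisons, so these values are not independent of each other.

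**Figure D1:**
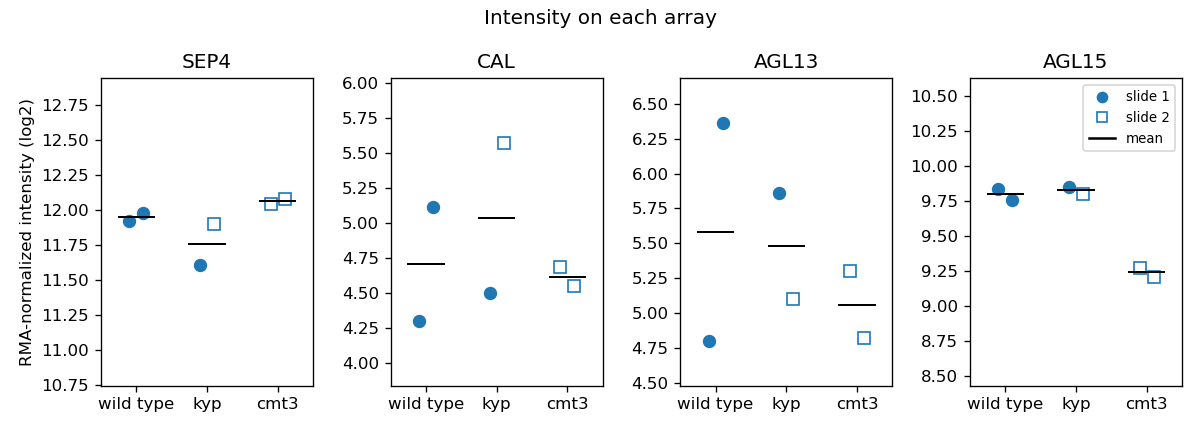
Log2 intensity of SEP4, CAL, AGL13 and AGL15 on each array, by genotype. Points are arrays (filled circles slide 1, open squares slide 2), bars are the means of 2 arrays, and each axis spans the same 2.2 log2 units. Both cmt3 arrays of AGL15 (9.27 and 9.21) lie below its 4 other arrays, and the wild type arrays of AGL13 are the lowest and the highest of its 6.

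AGL15 (AT5G13790) is annotated at 4449017 to 4450846 on chromosome 5 (coordinates of the gene models marked Release 6 in the files) and was read by 3 probes. Its intensity was 916 and 865 on the wild type arrays, 924 and 892 on those of kyp, and 619 and 590 on those of cmt3. The wild type and kyp arrays overlapped, and both cmt3 arrays lay below all 4 of them. On the log2 scale the wild type mean was 9.80 ± 0.06 (SD, n = 2), that of kyp 9.83 ± 0.04 and that of cmt3 9.24 ± 0.05. The wild type mean stood at percentile 49.4 of all gene models. In a bulk sample, fewer cells that hold a transcript and less transcript per cell cannot be told apart.

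The difference of AGL15 between cmt3 and wild type was -0.56 ± 0.10 (SE), an intensity 1.47-fold lower in cmt3. It did not pass the test over all gene models (adjusted p = 0.0942, limma). At an adjusted p under 0.10 AGL15 would be 1 of the 4.17% of gene models called in cmt3, and its p ranked 985 among all gene models, counted from the smallest. The 95% interval of this gene taken alone ran from -0.81 to -0.30. Between kyp and cmt3 the difference was 0.59 ± 0.10, or 1.50-fold, with an adjusted p of 0.309 (limma), and its p ranked 247. For kyp against wild type it was 0.03 ± 0.10 (adjusted p = 0.948), with a 95% interval from -0.23 to 0.28. Within slide 2, where 1 kyp array stands beside both cmt3 arrays, kyp was higher by 0.56, and within slide 1 kyp differed from wild type by 0.05. With the slide as a block in the fit, the cmt3 difference was -0.51 (adjusted p = 0.664).

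AGL15 varied little between arrays of a genotype. Its residual SD was 0.05 on the log2 scale, and 0.962% of the gene models in the same 25% band of mean intensity had a smaller one. The median of that band, which ran from 6.20 to 9.90 in mean log2 intensity, was 0.33. AGL15 lay near the upper end of the band, and the median of the next band was 0.12. Limma draws a gene's variance towards that of all genes, and the standard error of AGL15 was 0.10 in place of the 0.05 from its own arrays.

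AGL18, the partner of AGL15 in floral repression, was not chosen by the rule and is given for comparison. Its log2 intensity was 11.80 and 11.71 on the wild type arrays, 11.71 and 11.89 on the kyp arrays, and 11.94 and 11.89 on the cmt3 arrays. Its difference in cmt3 was 0.16 ± 0.11 (SE; adjusted p = 0.444, limma). Both genes had cmt3 arrays outside the range of wild type, AGL15 below it and AGL18 above it, and neither passed the test. With the slide as a block AGL18 differed by -0.016.

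SEP4 (AT2G03710, named AGL3 in the files) is annotated at 1129265 to 1131831 on chromosome 2 and was read by 2 probes. Its intensity was 3873 and 4038 on the wild type arrays, 3119 and 3824 on those of kyp, and 4229 and 4329 on those of cmt3. Both kyp arrays lay below wild type and both cmt3 arrays above it. On the log2 scale the means were 11.95 ± 0.04 (SD, n = 2), 11.75 ± 0.21 and 12.06 ± 0.02. The wild type mean of SEP4 stood at percentile 66.7 of all gene models, so this gene was not near the lower end of the scale. The 2 kyp arrays stood further apart than the means of kyp and wild type, with 11.61 on slide 1 and 11.90 on slide 2. Without kyp replicate 1 the difference from wild type was -0.05, and without kyp replicate 2 it was -0.34.

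The difference of SEP4 was -0.20 ± 0.13 (SE) in kyp (adjusted p = 0.675, limma) and 0.11 ± 0.13 in cmt3 (adjusted p = 0.658). Between kyp and cmt3 it was -0.31 ± 0.13 (adjusted p = 0.432). The 95% intervals ran from -0.55 to 0.16 in kyp and from -0.24 to 0.47 in cmt3, so differences of 2-fold in either direction lay outside both intervals. Within slide 1 the kyp array was 0.34 below wild type, and within slide 2 the kyp array was 0.16 below cmt3. With the slide as a block the cmt3 difference turned to -0.18 (adjusted p = 0.819).

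The other SEPALLATA genes were set beside SEP4. SEP1 and SEP3 had overlapping groups in every comparison, with differences from -0.04 to 0.23 and from -0.03 to 0.15 on the log2 scale. SEP2 stood at 5.63 and 5.86 (log2 intensity) on the wild type arrays, 6.15 and 6.50 on those of kyp, and 7.67 and 9.06 on those of cmt3. Both mutants lay above wild type in SEP2, and the 2 cmt3 arrays differed from each other by more than the 2 arrays of wild type or kyp. The wild type mean of SEP2 stood at percentile 19.2 of all gene models. The difference of SEP2 in cmt3, 2.62 ± 0.50 (SE), did not pass (adjusted p = 0.102, limma), but did with a prior variance that depends on intensity (adjusted p = 0.0416), a setting that called 7.48% of all gene models in cmt3. Blocked on slide, SEP2 differed by 2.27 (adjusted p = 0.691), and over the alternatives its adjusted p ran from 0.0416 to 0.691. SEP4 did not pass under that setting either.

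CAL (AT1G26310) is annotated at 9100145 to 9103590 on chromosome 1 and was read by 2 probes. Its intensity was 19.7 and 34.6 on the wild type arrays, 22.5 and 47.6 on those of kyp, and 25.7 and 23.4 on those of cmt3. The 3 genotypes overlapped. In wild type its mean lay at percentile 4.98 of all gene models, near the lower end of the scale, where a fold of intensity can understate a change in transcript. The log2 mean was 4.70 ± 0.58 (SD, n = 2) for wild type, 5.03 ± 0.76 for kyp and 4.62 ± 0.10 for cmt3.

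The differences of CAL were 0.33 ± 0.46 (SE) in kyp (adjusted p = 0.849, limma), -0.09 ± 0.46 in cmt3 (adjusted p = 0.932) and 0.42 ± 0.46 between the mutants (adjusted p = 0.740). The 95% interval in kyp, from -0.91 to 1.57, holds a rise of 2-fold. Its sign was not stable: within slide 1, kyp lay 0.21 below wild type. Within slide 2, kyp lay 0.96 above cmt3. AP1, the relative of CAL that was set aside with the flowering-time genes, stood at 6.69 and 5.54 (log2 intensity) on the wild type arrays, 5.22 and 7.07 on those of kyp, and 7.19 and 7.58 on those of cmt3. In both genes kyp replicate 2 lay above both wild type arrays and kyp replicate 1 did not.

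AGL13 (AT3G61120) is annotated at 22629234 to 22631466 on chromosome 3 and was read by 2 probes. Its intensity was 27.9 and 82.2 on the wild type arrays, 58.1 and 34.3 on those of kyp, and 39.4 and 28.3 on those of cmt3. Wild type held both the lowest and the highest array, which were 1.56 log2 units apart, and the other 4 lay between them. The log2 means were 5.58 ± 1.10 (SD, n = 2), 5.48 ± 0.54 and 5.06 ± 0.34. The mean of wild type stood at percentile 16.8 of all gene models.

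The differences of AGL13 were -0.10 ± 0.61 (SE) in kyp (adjusted p = 0.973, limma), -0.52 ± 0.61 in cmt3 (adjusted p = 0.660) and 0.42 ± 0.61 between the mutants (adjusted p = 0.809). The 95% interval in cmt3 ran from -2.16 to 1.12, so neither a 4-fold fall nor a 2-fold rise lay outside it. Within slide 1 kyp was 0.28 above wild type, and within slide 2 it was 0.04 above cmt3. AGL6, the relative of AGL13, stood between 6.98 and 8.18 on the 6 arrays, its lowest and highest values both in cmt3. Its groups overlapped as well.

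**Figure D2:**
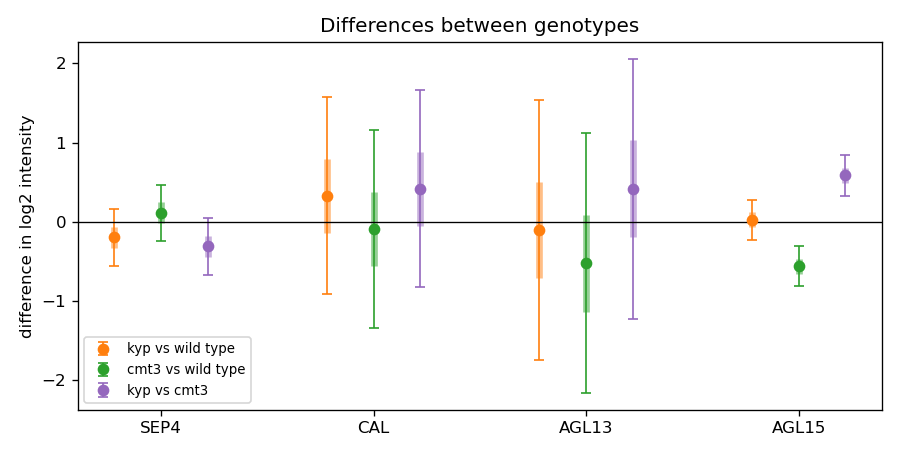
Difference in log2 intensity between genotypes for SEP4, CAL, AGL13 and AGL15. Points are limma estimates from 6 arrays, thick bars are standard errors and thin bars the 95% interval of each gene alone, not adjusted for the number of genes. The intervals of CAL and AGL13 cross 0 in all 3 comparisons, and those of AGL15 lie below 0 for cmt3 against wild type and above 0 for kyp against cmt3.

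The spread between arrays differed among the 4 genes. The residual SD was 0.55 for CAL and 0.73 for AGL13, where the median of gene models in the lowest 25% of mean intensity was 0.44, and 66.9% and 83.7% of those models had a smaller one. For SEP4 it was 0.12, beside a median of 0.12 in its band, and for AGL15 0.05. A 2-fold rise lay within the 95% intervals of CAL and AGL13 in both mutants.

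**Figure D3:**
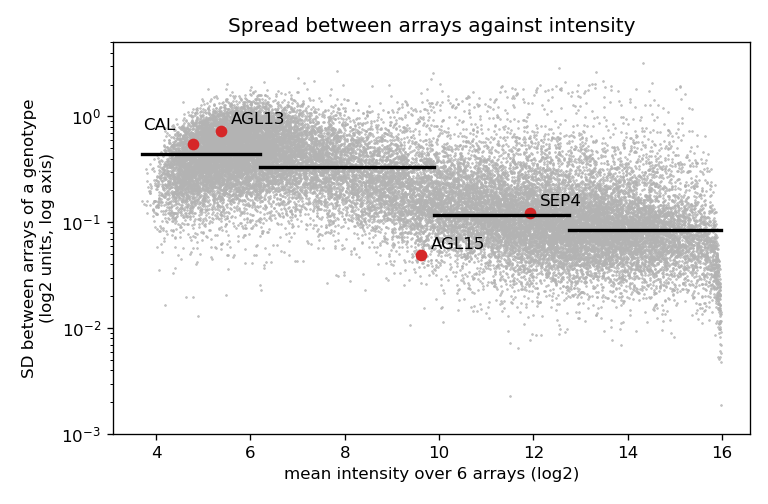
Residual SD between arrays of a genotype (log2 units, log axis) against mean log2 intensity over 6 arrays. Each grey dot is 1 of 30361 gene models, and black bars are the medians of the 4 bands of equal size by mean intensity (0.44, 0.33, 0.12 and 0.08). CAL and AGL13 lie above the median of their band, SEP4 at it and AGL15 below it.

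Groups did not overlap for 1 of the 4 genes in kyp (SEP4, lower), for 2 in cmt3 (AGL15 lower, SEP4 higher) and for 2 between the mutants (AGL15 higher in kyp, SEP4 lower). The share of all gene models without overlap was 45%, 57.4% and 48.3%. By direction it was 22% lower in kyp, 32.4% higher and 25% lower in cmt3, and 20.3% higher and 28% lower in kyp against cmt3, so that counts of 1 or 2 among 4 lay near the background. At least 2-fold apart without overlap were 0 of the 4 in each comparison, against 4.44%, 9.28% and 5.42% of all gene models.

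The chromosomal setting of the 4 genes was described next, since KYP and CMT3 act mainly on transposable elements. The nearest gene model described as a transposon or retroelement lay 18.9 kb from SEP4 (a hAT-like element), 66.9 kb from AGL13 (a copia-like element), 90.1 kb from CAL (a Mutator-like element) and 114 kb from AGL15 (a LINE). None of these elements was called in any comparison (limma; adjusted p from 0.168 to 0.980). Within 50 kb there were 27 further gene models around CAL, 29 around SEP4, 29 around AGL13 and 32 around AGL15. Of these 117, 0 were called in any of the 3 comparisons (limma), beside 0.105%, 0.741% and 0.0296% of all gene models. An unadjusted p under 0.05 was found for 9, 31 and 11 of the 117, beside 10.2%, 23% and 12.5% of all gene models. The counts in these windows thus lay near the background. Of the 4 genes, SEP4 was the 1 with transposable element models within 50 kb, of which there were 2. Elements without a gene model on the array were not counted, so closer ones may exist.

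The gene models that flank AGL15 differed less in cmt3. AT5G13780, an N-acetyltransferase gene 374 bases from it, differed by -0.16 ± 0.12 (SE) in cmt3 (adjusted p = 0.505, limma). On the other side PPH (AT5G13800), a pheophytinase of chlorophyll breakdown, differed by 0.09 ± 0.15 (adjusted p = 0.755). The median over the 32 models in the window was 0.07 in cmt3. They ran from -1.87 (AT5G13700) to 1.74 (AT5G13690), so some models in the window differed more than AGL15. Of the 32, 11 lay higher and 11 lower without overlap, beside 32.4% and 25% of all gene models. AGL15 lies 50.6 kb from KYP itself, and its intensity in kyp overlapped that of wild type.

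AGL13 lies 85.8 kb from CYP76C8P (AT3G60955), a cytochrome P450 pseudogene that rose by 8.64 log2 units in kyp and 7.34 in cmt3 (adjusted p = 0.00381 and 0.00261, limma). Blocked on slide, these were 8.84 and 7.74 and did not pass (adjusted p = 0.110 and 0.165). AGL13 itself did not pass the test in either mutant. The median over the 29 models within 50 kb of AGL13 was -0.04 in kyp and 0.00 in cmt3. Its flanking genes RS27A, a ribosomal protein gene, and GAUT1, a galacturonosyltransferase of pectin synthesis, differed by 0.09 and -0.03 in kyp and by 0.04 and 0.00 in cmt3. Beside SEP4, the root hair gene MRH6 differed by 0.78 ± 0.18 (SE) in kyp (adjusted p = 0.368, limma) and by 0.31 ± 0.18 in cmt3 (adjusted p = 0.389). On the other side of SEP4, AT2G03690 differed by -0.20 in kyp and -0.33 in cmt3. The models that flank CAL, AT1G26290 and AT1G26320, differed by -0.53 and -0.42 in kyp and by -0.37 and -0.51 in cmt3. None of these flanking models was called.

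**Figure D4:**
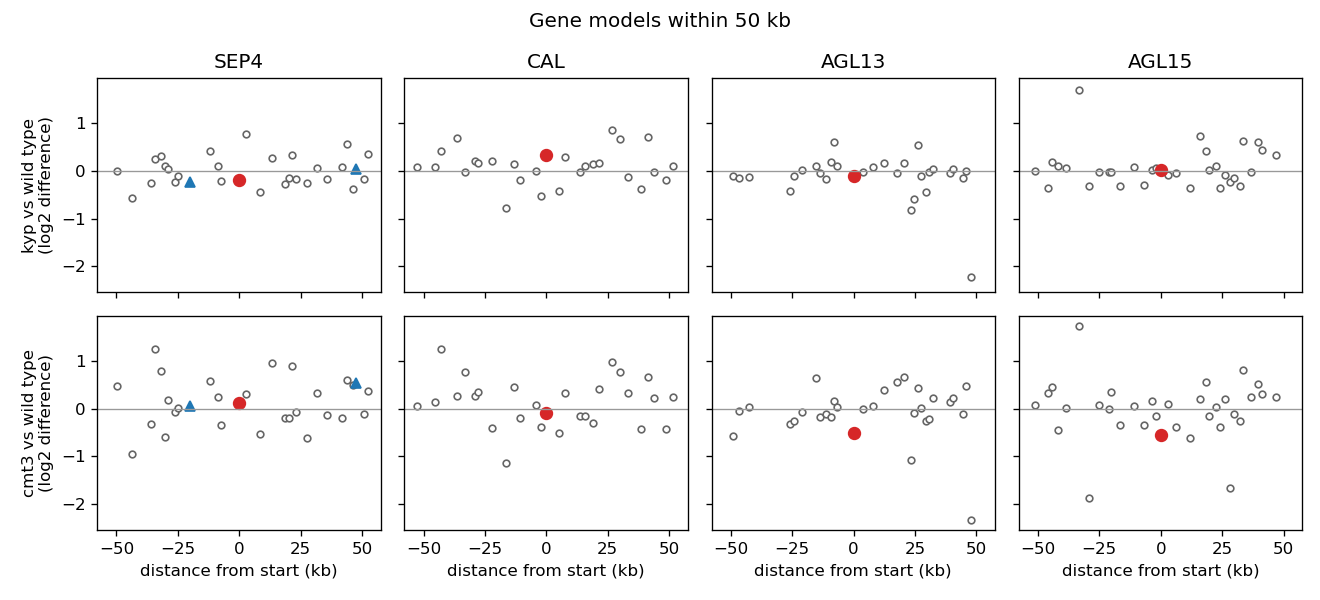
Difference in log2 intensity of the gene models within 50 kb of SEP4, CAL, AGL13 and AGL15 (red, at 0), against the distance between gene starts in kb, for kyp (upper row) and cmt3 (lower row) against wild type. Open circles are gene models and triangles those described as transposable elements. None of the neighbours was called, and around AGL15 they lie on both sides of 0.

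A part of the wider family was read from lists by role, fitted in the same way. The lists do not hold every MADS-box gene, so counts over them are not counts of the whole family. The 10 flowering-time genes that the rule set aside are outside the lists. Of the 48 listed genes beside the 4, none was called in kyp, in cmt3 or between the mutants (limma; 5, 8 and 8 had an unadjusted p under 0.05). At least 2-fold apart without overlap were 4 of the 48 in kyp, 7 in cmt3 and 5 between the mutants. Each of these is a larger share than the 4.44%, 9.28% and 5.42% of all gene models, a difference that was not tested. In addition, 23 of the 48 had a wild type mean in the lowest 25% of gene models, as did 2 of the 4 genes (CAL and AGL13). The medians of the 48 were -0.03, 0.05 and -0.01.

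Within the floral organ list of 11 genes, which holds SEP4, CAL and AGL13, the median was -0.07 in kyp and -0.04 in cmt3. The organ identity genes AP3, PI and AG were not called either. AG, which specifies stamens and carpels, differed by 0.21 ± 0.14 (SE) in kyp (adjusted p = 0.670, limma) and by -0.36 ± 0.14 in cmt3 (adjusted p = 0.227). The list included AGL79, a relative of AP1, which differed by -0.69 ± 0.21 (SE) in kyp (adjusted p = 0.427, limma) and by -1.06 ± 0.21 in cmt3 (adjusted p = 0.103). The 5 genes of carpel, ovule and seed coat had a median of 0.36 in kyp and 0.03 in cmt3. Without overlap in kyp, 6993 of all 30361 gene models lay higher and 6671 lower. Of the 5 genes of this list 3 lay higher without overlap, among them STK, an ovule identity gene, with 0.98 ± 0.38 (SE; adjusted p = 0.503, limma), and 1 lower. The lower one, SHP2, which acts in the fruit valve margin, differed by -1.06 ± 0.31 and -1.003 ± 0.31 (adjusted p = 0.418 and 0.168). The list named root and vegetative, of 13 genes, also holds regulators of flowering, among them AGL15 and AGL18. In it AGL15 had the smallest p in cmt3, and the median of the other 12 was 0.08. In the list of 6 genes of the MIKC* class, named for pollen, AGL65 differed by -0.48 ± 0.18 in kyp and -0.61 ± 0.18 in cmt3 (adjusted p = 0.486 and 0.157). In these leaves the wild type means of AGL65 and AGL30 stood at percentiles 62.6 and 68.8 of all gene models, and the other 4 of the list lower. Among the 17 type I genes, known from endosperm and the female gametophyte, AGL23 differed by 1.18 ± 0.39 and 1.11 ± 0.39 (adjusted p = 0.457 and 0.200). PHE1, an imprinted endosperm gene, differed by -0.76 ± 0.55 and 1.37 ± 0.55 (adjusted p = 0.689 and 0.237), and AGL86 by 1.11 ± 0.35 in cmt3 (adjusted p = 0.175). The wild type arrays are shared by the 2 values of each gene.

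**Figure D5:**
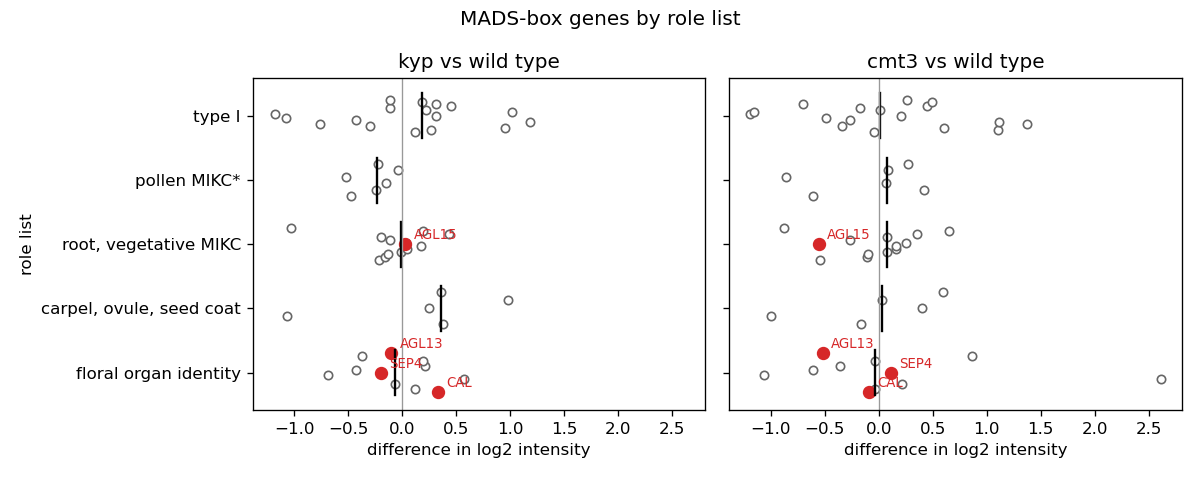
Difference in log2 intensity of 52 MADS-box genes in kyp (left) and cmt3 (right) against wild type, by role list. Red points are CAL, SEP4, AGL13 and AGL15, open circles the 48 other listed genes, and black bars the median of each list. In cmt3 the point furthest to the right is SEP2 (2.62), and none of the 52 was called.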

How the data were processed

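RNA from 6 samples was measured, 1 array each. Per the labels, the authors normalized the intensities by RMA, and the deposited intensity of each gene model, summarised from 1 to 3 probes, is on a linear scale. The RMA settings are not given in the sources used. The series table held the same intensities (0 values differed by over 0.001). The standard errors in the files were left aside, as nothing says what they measure.

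Intensities were taken to log2 and compared with limma 3.58.1 in R 4.3.3, in 1 fit over 6 arrays with 3 residual and 1.41 prior degrees of freedom, with no filter, no block and Benjamini-Hochberg adjustment over 30361 models. A call is an adjusted p under 0.05. The fit was tested on simulated data, in which every gene model had the same spread. The planted changes were larger than any difference of CAL, SEP4, AGL13 or AGL15. Differences of their size and unequal spreads were thus not covered. Arrays have no total count, and their number (2 a genotype) limits the precision. Symbols for 29976 loci come from RefSeq (TAIR10.1), of which no coordinate was used, and the coordinates given are those of the files.

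The genes and lists were chosen with earlier results of these data known. Of the 52 listed family genes, all were on the array. The naming rule was written for the chosen genes, expected to be the whole family, and was applied to the listed family too: the floral organ and carpel lists, called genes, the smallest p of each list, the 4 highest wild type intensities and the 5 largest rises and falls without overlap, from which those given were taken. Relatives (AGL18, SEP1, SEP2, SEP3, AP1, AGL6), neighbours within 50 kb and CYP76C8P were chosen with their values known. Alternatives were a replicate block, the slide as a block, an intensity trend, robust moderation, leaving out the lowest 25% of models, quantile normalization, median centring, an offset of 32, the groups compared alone, an adjusted p under 0.10, 1 slide alone and each array left out.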

Additional observations from a re-analysis of the deposited data

How the results depend on the processing

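The count of calls among CAL, SEP4, AGL13 and AGL15 stayed at 0 under the alternatives run, in all 3 comparisons, except that at an adjusted p under 0.10 the count in cmt3 was 1 (AGL15). AGL15 in cmt3 ranged from -0.62 to -0.51 with adjusted p from 0.0521 (without the lowest 25% of models) to 0.664 (slide as a block), and 0.0829 with an intensity trend. With the replicate block it was -0.56 (adjusted p = 0.140), and no call was made among the 4 genes. The labels do not say that a replicate number pairs arrays, and deviations of same-numbered arrays correlated at -0.12 (wild type and kyp), 0.00 (wild type and cmt3) and -0.04 (kyp and cmt3) over 30361 models, so the block was not used. With the slide as a block the sign turned for CAL in kyp (-0.21), AGL13 in kyp (0.28) and cmt3 (0.24), SEP4 in cmt3 (-0.18) and AGL18 in cmt3 (-0.016). CAL in cmt3 became -1.17 there, and AGL65, AGL23, PHE1, AGL86 and BEL1 in cmt3 shrank to -0.18, 0.56, 0.52, 0.25 and 0.51. The block separates slide from genotype only through the 2 kyp arrays.

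Leaving out 1 array at a time moved CAL from -0.21 to 0.87 in kyp, from -0.50 to 0.32 in cmt3 and from -0.12 to 0.96 between the mutants. AGL13 moved from -0.88 to 0.68 in kyp and from -1.30 to 0.26 in cmt3, AGL15 in kyp from -0.014 to 0.070, and SEP4 in kyp from -0.34 to -0.05 (without kyp replicates 2 and 1). Of the other genes, PHE1 moved from -1.19 to -0.34 in kyp and from 0.69 to 2.05 in cmt3, SHP2 to -0.66 in kyp and -0.60 in cmt3 (without wild type replicate 2), AGL65 to -0.26 in kyp (without kyp replicate 2) and AGL23 to 0.64 in cmt3 (without cmt3 replicate 2). PHE1 was nearest 0 without kyp replicate 1 and cmt3 replicate 2. An offset of 32 reduced AGL79 to -0.36 in kyp and -0.51 in cmt3, SHP2 to -0.61 and -0.59, and AGL23 to 0.73 and 0.69. The median of the 4 genes moved from -0.15 to 0.33 in kyp and from -0.51 to 0.20 in cmt3, where wild type replicate 2 decided the sign in both. Counts without overlap ranged from 1 to 3 in kyp, from 2 to 4 in cmt3 and from 2 to 4 between the mutants, since a single array overlaps less often. At least 2-fold apart without overlap in cmt3 were 0 to 1 (AGL13, without wild type replicate 1). In the lowest 25% of wild type were 1 to 2, where the lower count, without wild type replicate 1, leaves CAL. The cause of these moves was not tested. Of the 48 other listed genes 1 (SEP2, 2.62) was called in cmt3 with an intensity trend.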

Other observations

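The 4 pseudogene fragments whose descriptions hold the letters MADS were not among the genes chosen. They stood between 4.87 and 7.92 on the log2 scale, and none was called in kyp, cmt3 or between the mutants (limma; 0 had an unadjusted p under 0.05). Their medians were -0.56 in kyp and -0.14 in cmt3. In AT3G32313 the cmt3 arrays stood at 7.92 and 6.62, and in wild type at 5.71 and 6.92.

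Of the 20 floral regulators outside the family, among them LFY and WUS, none was called in any comparison (limma; 1, 2 and 2 had an unadjusted p under 0.05). BEL1, a homeodomain gene of ovule development that works with MADS-domain proteins, stood at 11.49 and 11.29 (log2 intensity) in wild type and at 13.39 on both cmt3 arrays. Its kyp arrays were at 11.16 on slide 1 and 12.65 on slide 2. Its difference in cmt3 was 1.998 ± 0.51 (SE; adjusted p = 0.137, limma) and 0.51 with the slide as a block (adjusted p = 0.690). Of its 6 arrays the 3 of slide 2 were the highest.

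The 16 Polycomb genes and antagonists had a median of 0.05 in kyp and 0.20 in cmt3, and none was called (limma; 0 and 2 had an unadjusted p under 0.05). All but 2 of them lay above the lowest 25% of wild type intensities.

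Of the 10 flowering-time MADS-box genes that were set aside, 1 was called, in cmt3, where 0.741% of all gene models were. It was MAF5, a repressor of flowering related to FLC, which fell by 2.25 on the log2 scale in cmt3 (adjusted p = 0.0491, limma). In kyp it differed by -2.20 (adjusted p = 0.111), and both arrays of each mutant lay below wild type. Blocked on slide, MAF5 differed by -2.48 in kyp and -2.81 in cmt3 and was not called (adjusted p = 0.212 and 0.278). The medians of the 10 genes were -0.28 in kyp and -0.20 in cmt3. Without overlap 8 of the 10 lay lower and 1 higher in kyp, and 7 lower and 2 higher in cmt3. Of all gene models 22% lay lower without overlap in kyp and 25% in cmt3. At least 2-fold apart without overlap were 4 in kyp, all lower, and 4 in cmt3, of which 3 were lower, beside 4.44% and 9.28% of all gene models. The same wild type arrays serve both counts.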
